A study of Homo sapiens with 9 samples.

Results

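The genes described here lie on the long arm of human chromosome 9, in band 9q34, between position 131570000 and position 137880000 of GRCh38, next to the telomere. They are the protein-coding genes of GENCODE release 44 that start in this interval and had a mean of at least 4 CPM (read counts scaled to the library total) over the 9 libraries, apart from 3 genes that the rule excepts. Of the 137 protein-coding genes of the interval in the count tables, 80 lay under the minimum and 54 were kept as segment genes, out of 60609 gene identifiers in the series. All 54 passed the filter on low counts of the test. The interval was selected on measured values: many of its genes were higher in NCBP2 libraries than in vector libraries of these same data. Fold changes, overlaps and calls against vector are therefore given as a description from which nothing is read, since the choice fixed their direction. Only the difference between the 2 NCBP2 clones is read as a test, with the limit that a gene near the minimum could enter through a single group.

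All 9 libraries came from U2-OS, an established human osteosarcoma cell line that maintains its telomeres without telomerase. The NCBP2 arm holds 6 libraries, 3 of clone A1 and 3 of clone A4, both made to overexpress NCBP2, the small RNA-binding subunit of the nuclear cap-binding complex. The control arm holds 3 libraries, each from its own empty-vector clone, so every cell in the study had been through cloning. The labels do not say whether the 3 libraries of an NCBP2 clone came from separate cultures, so the spread within such a clone may be technical. The p-values rest on an estimate of spread shared by all 9 libraries. It mixes the spread within the NCBP2 clones with the spread between the 3 vector clones, also for the test between the 2 NCBP2 clones. With 2 clones in one arm and 3 in the other, a difference that a clone carried and a difference that NCBP2 made cannot be told apart.

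Band 9q34 is one of the gene-dense and GC-rich ends of the human genome. Its genes have unrelated jobs, and what they share is their place on the chromosome. Among them are EHMT1, a histone H3 lysine 9 methyltransferase, and WDR5, a core subunit of the histone H3 lysine 4 methyltransferases. NOTCH1 is a cell-surface receptor whose cleaved inner part acts in the nucleus, and TSC1 (hamartin) is the partner of TSC2 in the complex that restrains mTORC1. SURF1, SURF2, SURF4 and SURF6 belong to the surfeit cluster, a tight group of unrelated housekeeping genes.

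The overexpressed gene fitted the labels. NCBP2 stood at 298.9, 348.4 and 304.7 CPM for clone A1, at 796.3, 1035.3 and 456.2 CPM for clone A4, and at 98.4, 90.6 and 98.3 CPM for the vector libraries. All 6 NCBP2 libraries lay above all vector libraries, with a log2 fold change of 1.73 in clone A1 and 2.99 in clone A4. Gene counts ran from 29234022 to 50554080 per library. Clone A1 replicate A had the fewest, and 63.6% of its reads were on lines that name no gene, against 44.5% to 58.1% in the other libraries. Of 10 osteosarcoma and mesenchymal markers, 8 exceeded 1 CPM in every library, while COL1A2 reached at most 1.15 CPM and BGLAP was at or near 0. Their summed level was 4251 to 5504 CPM for clone A1, 5231 to 6258 CPM for clone A4 and 5933 to 7305 CPM for vector. Single markers differed in direction. By group mean, VIM, SPARC, FN1 and CD44 were below vector in both clones. RUNX2 was above it in both, at 208.2 and 253.3 against 200.4 CPM. COL1A1, THY1 and ALPL were below vector in clone A1 and above it in clone A4. Fewer cells of a type and less RNA per cell cannot be told apart in such bulk samples. The part of these marker differences in the results below was not tested. The 11 markers of other cell types summed to 4.87 to 10.6 CPM. EPCAM, at 2.42 to 5.58 CPM, was the 1 marker of these above 1 CPM in every library. CDH1 reached 3.63, KRT5 3.12, PTPRC 2.01 and CDH5 1.05 CPM. The other 6 stayed under 1 CPM in every library, with CD3E and SOX10 at 0, and TERT was at 0.

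In clone A4 the segment genes lay above vector nearly throughout. Their median log2 fold change was 0.60, with quartiles of 0.42 and 0.70, and 53 of 54 were above 0, as were 53.6% of all genes tested. TTF1, the termination factor of RNA polymerase I, was the exception at -0.03. In 24 of the 54 genes, all 3 clone A4 libraries lay above all 3 vector libraries, where 6.2% of all 21682 genes tested and 4.02% of the 10606 expressed protein-coding genes did. The calls of this contrast are listed as a description of the values that chose the genes. At an adjusted p under 0.05, edgeR's quasi-likelihood test called none of the 54 (0.115% of all genes) and DESeq2 called EHMT1 and SAPCD2 (1.01%), and 19 segment genes were higher at an unadjusted p under 0.05 by edgeR (2.5%).

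In clone A1 the median log2 fold change was 0.31. The quartiles were 0.10 and 0.43 and the range -0.45 to 0.85, and 47 of 54 genes were above 0, against 48.4% of all genes. In 12 genes all 3 clone A1 libraries lay above all vector libraries, where 6.18% of all genes and 7.15% of expressed protein-coding genes did. Listed in the same way, edgeR called no segment gene (0.0646% of all genes) and DESeq2 called SAPCD2 (1.26%), and 8 segment genes were higher at an unadjusted p under 0.05 by edgeR (3.24%). The same 3 vector libraries serve both clones, so the 2 sets of fold changes are not independent of each other. Over all genes tested the median was -0.02 in clone A1 and 0.03 in clone A4.

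Fold changes were then laid out along the chromosome. The 61 expressed protein-coding genes in the 5 Mb before the interval, on the centromere side, had a median log2 fold change of 0.19 in clone A1 and 0.11 in clone A4. For the 361 such genes of chromosome 9 outside the interval, these 61 included, it was 0.09 and -0.00. Inside the interval, the 7 genes before TSC1 had a median of 0.36 in clone A1 and 0.17 in clone A4. From TSC1 to EHMT1, the last gene, the 47 genes had a median of 0.29 in clone A1 and 0.61 in clone A4, and all 47 were above 0 in clone A4. The division at TSC1 was chosen after the values had been seen and has no test. No expressed protein-coding gene starts beyond the interval.

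**Figure D1:**
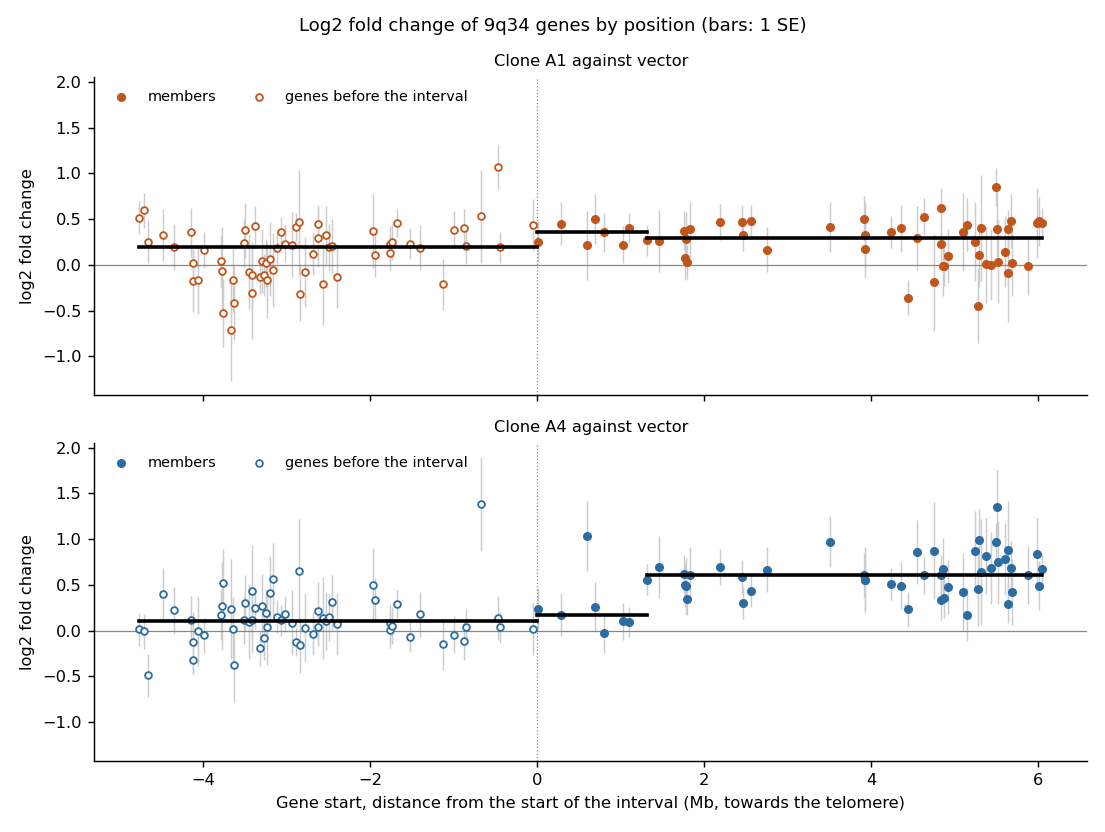
Log2 fold change against vector (vertical axis) of each expressed protein-coding gene by the distance of its start from the start of the interval in Mb (horizontal axis), clone A1 above and clone A4 below. Filled points are the 54 segment genes (members), open points the 61 genes before the interval, grey bars 1 SE and black lines medians: in clone A4 the line steps from 0.17 to 0.61 at TSC1, while in clone A1 it stays between 0.19 and 0.36.

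The 3 nearest expressed genes before the interval were taken one by one. AIF1L, an actin-binding protein gene, stood at 15.2, 17.3 and 15.6 CPM for clone A1, 9.67, 7.71 and 7.84 CPM for clone A4 and 9.06, 7.65 and 6.22 CPM for vector. Its clone A1 libraries lay above all others, and its log2 fold change was 1.07 in clone A1 and 0.14 in clone A4. NUP214, a nuclear pore protein gene, had 0.19 and 0.03, and UCK1, a uridine-cytidine kinase gene, had 0.44 and 0.01.

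SAPCD2, which encodes a protein that acts in spindle orientation, had the highest mean fold change of the 54. It lies at chr9:137062127-137070557 on the minus strand (ENSG00000186193.9). Its level was 20.6, 20.2 and 23.3 CPM for clone A1, 24.7, 18.3 and 26.2 CPM for clone A4, and 12.3, 12.1 and 11.1 CPM for vector. All 6 NCBP2 libraries lay above all vector libraries, and the vector libraries were close together. The log2 fold change was 0.85 (SE 0.21) in clone A1 and 0.96 (SE 0.21) in clone A4.

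Promoter sequence was looked up for all segment genes in the RefSeq table for GRCh38.p14, which matched 49 of 54. Promoters in that table run from 250 bases before to 50 bases after the start. GC content of these promoters had a median of 74.3%, against 58.3% over all 27305 promoters. The GC box core GGGCGG, on either strand, was in 38 of the 49 (77.6%), against 44.6% of all promoters. CGGAAG, the core of an ETS-type motif, was in 22 (44.9%) against 19.9%. CCAAT was in 11 (22.4%) against 35.7%, and TATAAA was in 0 of 49 against 12.0%. These are matches of letters, not binding sites, and GC-rich windows hold GC-rich motifs more often.

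The 120 bases upstream of the RefSeq start are shown for 4 genes: SAPCD2 and DPH7, among the 8 highest by the mean fold change of the 2 clones, and TTF1 and NACC2, among the 8 lowest. All 4 are on the minus strand and are written 5′ to 3′ on the gene's strand, with GGGCGG or its reverse complement CCGCCC in capitals. The intervals are chr9:137070558-137070677 for SAPCD2, chr9:137578926-137579045 for DPH7, chr9:132406841-132406960 for TTF1 and chr9:136095290-136095409 for NACC2. The last 11 bases of the TTF1 stretch lie in an annotated GENCODE exon of the gene.
SAPCD2: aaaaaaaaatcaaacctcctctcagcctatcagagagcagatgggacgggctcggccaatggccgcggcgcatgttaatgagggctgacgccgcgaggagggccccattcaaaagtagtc
DPH7: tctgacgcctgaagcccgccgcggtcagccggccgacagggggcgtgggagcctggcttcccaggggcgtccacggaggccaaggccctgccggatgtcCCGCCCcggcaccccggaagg
TTF1: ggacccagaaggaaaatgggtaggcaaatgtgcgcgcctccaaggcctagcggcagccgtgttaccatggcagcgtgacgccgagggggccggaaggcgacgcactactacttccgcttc
NACC2: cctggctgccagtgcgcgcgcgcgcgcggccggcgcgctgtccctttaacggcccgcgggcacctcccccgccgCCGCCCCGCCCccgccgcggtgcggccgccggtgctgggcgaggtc
The stretch of DPH7 holds 1 match and that of NACC2 holds 2, which overlap, while those of SAPCD2 and TTF1 hold 0. Their GC contents are 55.8% for SAPCD2, 76.7% for DPH7, 63.3% for TTF1 and 85.0% for NACC2.

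Genes of transcription and chromatin formed the largest role list, with 14 segment genes and medians of 0.34 in clone A1 and 0.43 in clone A4. All 3 libraries lay above vector for 5 of the 14 in each clone, where 6.18% of all genes did in clone A1 and 6.2% in clone A4. EHMT1 (ENSG00000181090.21, chr9:137618992-137870016, plus strand), the methyltransferase, was the highest of the list by mean fold change. It stood at 67.7, 83.1 and 79.5 CPM for clone A1, 87.3, 88.4 and 91.0 CPM for clone A4, and 64.7, 54.1 and 48.9 CPM for vector. Clone A4 libraries lay above all clone A1 libraries, which lay above all vector libraries. Log2 fold changes were 0.46 (SE 0.17) and 0.67 (SE 0.17).

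WDR5, the scaffold of the lysine 4 methyltransferases, was at 86.4, 111.6 and 115.5 CPM for clone A1, 85.7, 113.0 and 104.1 CPM for clone A4, and 78.1, 74.7 and 71.9 CPM for vector. Neither clone overlapped vector, and the clones overlapped each other, with log2 fold changes of 0.48 (SE 0.17) and 0.43 (SE 0.17). BRD3, a BET-family reader of acetylated histones, stood at 95.5, 92.3 and 83.1 CPM for clone A1, 88.5, 101.6 and 75.7 CPM for clone A4, and 82.3, 70.5 and 63.3 CPM for vector. Clone A1 lay above vector for BRD3 while clone A4 overlapped it, although the fold changes were alike at 0.33 (SE 0.17) and 0.30 (SE 0.17).

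NELFB, a subunit of the negative elongation factor that binds the cap-binding complex, was at 13.9, 25.1 and 28.2 CPM for clone A1, 21.4, 22.8 and 45.0 CPM for clone A4, and 22.7, 29.7 and 14.1 CPM for vector. Its groups overlapped, with log2 fold changes of 0.02 (SE 0.36) and 0.42 (SE 0.36). TTF1 was at 34.3, 29.5 and 35.9 CPM for clone A1, 27.2, 22.0 and 27.1 CPM for clone A4, and 30.7, 19.7 and 27.5 CPM for vector. For TTF1 all clone A4 libraries lay below all clone A1 libraries, and both clones overlapped vector, at 0.36 (SE 0.21) and -0.03 (SE 0.21). MED27, a Mediator subunit, had 0.45 (SE 0.24) and 0.17 (SE 0.24), and all of its clone A1 libraries lay above vector.

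NACC2, a BTB-domain transcriptional repressor at chr9:136006537-136095289 on the minus strand (ENSG00000148411.8), stood apart from its neighbours. It was at 31.3, 44.7 and 48.6 CPM for clone A1, 55.1, 65.2 and 67.3 CPM for clone A4, and 58.0, 53.3 and 48.4 CPM for vector. Clone A4 lay above clone A1 without overlap, and both overlapped vector. The log2 fold changes were -0.36 (SE 0.20) in clone A1 and 0.23 (SE 0.19) in clone A4.

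Genes of RNA, ribosomes and translation numbered 5, with medians of 0.37 and 0.60. DPH7, which acts in the synthesis of diphthamide on elongation factor 2, was the highest, at 3.77, 10.4 and 11.6 CPM for clone A1, 12.7, 7.42 and 13.6 CPM for clone A4, and 6.46, 6.69 and 5.66 CPM for vector. Clone A4 lay above vector, while clone A1 replicate A lay below it. The fold changes were 0.46 (SE 0.39) and 0.84 (SE 0.39). DDX31, a nucleolar helicase gene, was the lowest of the list at 0.22 (SE 0.20) and 0.10 (SE 0.20).

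Genes of mitochondria and metabolism numbered 7, with medians of 0.28 and 0.49. UAP1L1, related to UDP-N-acetylglucosamine pyrophosphorylase, had the highest fold change of all segment genes in clone A4. It was at 2.43, 3.98 and 3.29 CPM for clone A1, 5.39, 4.37 and 9.23 CPM for clone A4, and 1.89, 3.69 and 1.83 CPM for vector, so clone A4 lay above both other groups. Log2 fold changes were 0.39 (SE 0.40) and 1.36 (SE 0.41), on few counts. The mean of UAP1L1 passed the minimum of 4 CPM in clone A4 alone, at 6.33 CPM. SURF1, an assembly factor of cytochrome c oxidase, was at 5.10, 9.63 and 7.27 CPM for clone A1, 8.64, 8.33 and 8.55 CPM for clone A4, and 6.82, 7.10 and 4.22 CPM for vector. Clone A4 lay above vector for SURF1 and clone A1 did not, with 0.28 (SE 0.31) and 0.49 (SE 0.31).

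PHPT1, a phosphohistidine phosphatase gene, had the lowest clone A1 value of the 54. It was at 5.00, 15.1 and 9.90 CPM for clone A1, 14.1, 14.97 and 27.1 CPM for clone A4, and 16.8, 16.1 and 8.17 CPM for vector. All groups overlapped, and the log2 fold changes were -0.45 (SE 0.41) and 0.45 (SE 0.41). PMPCA, a subunit of the mitochondrial processing peptidase, had 0.23 (SE 0.22) and 0.34 (SE 0.22).

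The secretory pathway list held 7 genes, with medians of 0.03 in clone A1 and 0.61 in clone A4. ENTR1, an endosomal protein gene, was its highest, at 21.3, 19.3 and 26.4 CPM for clone A1, 19.3, 20.9 and 26.2 CPM for clone A4, and 13.3, 16 and 14.2 CPM for vector. Neither clone overlapped vector for ENTR1, with fold changes of 0.62 (SE 0.21) and 0.61 (SE 0.21). SURF4, a cargo receptor of the endoplasmic reticulum, was at 168.8, 236.3 and 208.5 CPM for clone A1, 239.1, 295.1 and 232.7 CPM for clone A4, and 216.9, 222.5 and 162.1 CPM for vector. Clone A4 lay above vector while clone A1 overlapped it, with 0.03 (SE 0.18) and 0.35 (SE 0.18). SEC16A, which organises sites of exit from the endoplasmic reticulum, gave nearly the same values, -0.01 (SE 0.22) and 0.35 (SE 0.22).

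Signalling genes numbered 7, with medians of 0.26 and 0.61. VAV2, a guanine nucleotide exchange factor, was at 25.8, 31.7 and 28.7 CPM for clone A1, 32.4, 30.6 and 37.8 CPM for clone A4, and 24.98, 19.3 and 17.9 CPM for vector. Both clones lay above vector, clone A1 by a narrow margin, with fold changes of 0.47 (SE 0.20) and 0.70 (SE 0.20). TSC1 was at 73.0, 99.3 and 96.3 CPM for clone A1, 100.2, 123.8 and 103.8 CPM for clone A4, and 75.6, 72.3 and 74.9 CPM for vector. Clone A4 lay above all other libraries for TSC1, while clone A1 replicate A lay among the vector libraries, and the fold changes were 0.27 (SE 0.17) and 0.56 (SE 0.17). NOTCH1 was at 14.2, 27.1 and 25.4 CPM for clone A1, 27.5, 20.4 and 38.9 CPM for clone A4, and 23.1, 23.0 and 16.2 CPM for vector. Its groups overlapped throughout, with 0.10 (SE 0.30) and 0.48 (SE 0.30). RAPGEF1, an exchange factor of RAP1, was the lowest of the list at 0.26 (SE 0.23) and 0.24 (SE 0.23).

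Cytoskeleton and cilia genes numbered 4, with medians of 0.42 and 0.62, and all 4 lay above vector without overlap in clone A4, where 6.2% of all genes did. TUBB4B, a beta-tubulin gene, was at 128.4, 216.2 and 291.9 CPM for clone A1, 212.6, 202.7 and 320.0 CPM for clone A4, and 146.4, 194.9 and 115.4 CPM for vector. Clone A1 overlapped vector for TUBB4B through replicate A alone, and the fold changes were 0.48 (SE 0.29) and 0.69 (SE 0.29). CAMSAP1, which binds microtubule minus ends, had 0.36 (SE 0.18) and 0.51 (SE 0.18), and PIERCE1, a protein of motile cilia, 0.33 (SE 0.36) and 0.55 (SE 0.36).

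The 2 extracellular genes had medians of 0.31 and 1.0, the widest gap between clones of any role list. OLFM1, a secreted olfactomedin, was at 13.97, 11.99 and 13 CPM for clone A1, 18.7, 19.3 and 19.4 CPM for clone A4, and 5.91, 13.1 and 10.2 CPM for vector. Clone A4 lay above every other library, and the fold changes were 0.41 (SE 0.27) and 0.97 (SE 0.27). NTNG2, a netrin-G protein anchored at the cell surface, was at 3.10, 4.84 and 4.44 CPM for clone A1, 5.90, 5.69 and 10.4 CPM for clone A4, and 3.53, 4.98 and 2.17 CPM for vector. Although it lies before TSC1, NTNG2 had 0.21 (SE 0.38) in clone A1 and 1.03 (SE 0.38) in clone A4. Clone A4 against clone A1 was 0.82 for NTNG2 and 0.56 for OLFM1. With the correction for GC content and length described below, these differences were 0.28 and 0.16.

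The 3 ubiquitin genes had medians of 0.15 and 0.78, and none lay above vector without overlap. ANAPC2, the cullin subunit of the anaphase-promoting complex, had 0.15 (SE 0.39) and 0.78 (SE 0.39), and FBXW5, an F-box protein gene, 0.00 (SE 0.42) and 0.82 (SE 0.42). Without clone A4 replicate C, the clone A4 values were 0.24 for ANAPC2 and 0.23 for FBXW5. Of the 5 genes outside these lists, TMEM250 was highest at 0.29 (SE 0.35) and 0.86 (SE 0.35), and DIPK1B lowest at 0.44 (SE 0.29) and 0.18 (SE 0.29). Counted without regard to strand, DIPK1B reached 0.56 in clone A4.

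**Figure D2:**
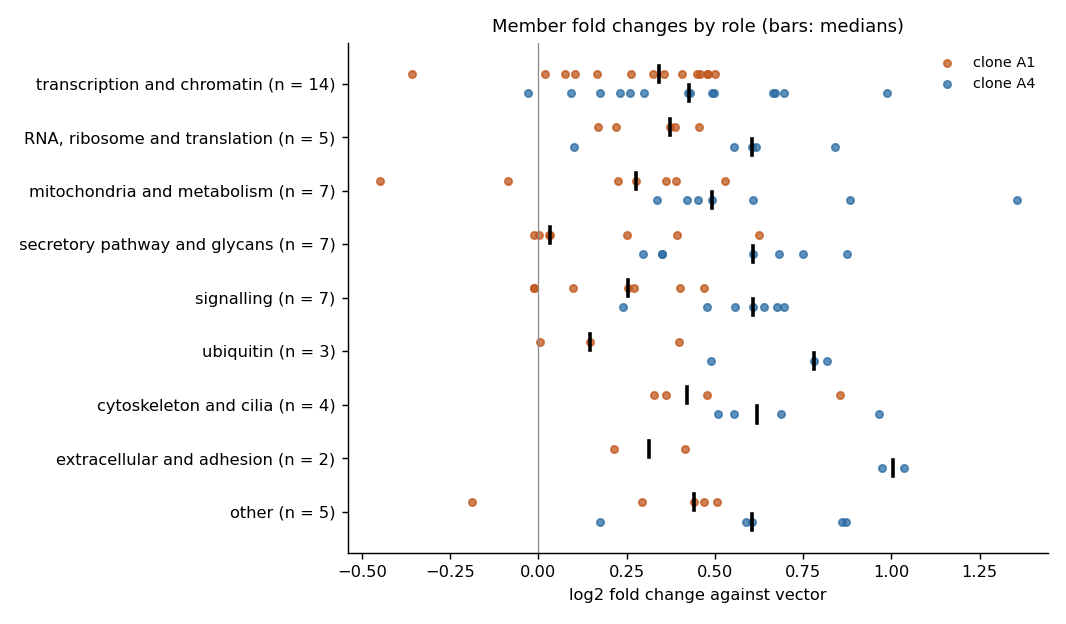
Log2 fold change against vector (horizontal axis) of the 54 segment genes, 1 point per gene, by role list (vertical axis, with the number of genes), clone A1 in orange and clone A4 in blue, black bars at medians. Every list has a median above 0 in both clones, from 0.03 for the secretory pathway in clone A1 to 1.0 for the extracellular genes in clone A4.

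Per kilobase of exon, levels of the segment genes spanned a wide range. In vector they ran from 0.469 CPM per kb for UAP1L1 to 74.8 CPM per kb for TUBB4B, with a median of 4.02. SURF4 was next at 58.2 CPM per kb, and WDR5 stood at 20.6 CPM per kb. In clone A4 the highest remained TUBB4B, at 120.3 CPM per kb. The genes just over the minimum were UAP1L1 at a mean of 4.07 CPM, GPSM1 at 4.09 and PIERCE1 at 4.16, and those just under it were SSNA1 at 3.82, SURF2 at 3.80 and DPP7 at 3.69.

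There were 3 pairs of segment genes with close start sites on opposite strands. The start sites of DDX31 and GTF3C4 lie at a distance of -366 bases, the minus sign meaning that the genes overlap there, and both genes were nearer vector in clone A4 (0.10 and 0.09) than in clone A1 (0.22 and 0.41). ENTR1 and PMPCA start 16 bases apart, and ENTR1 had the higher fold change in both clones. TMEM203, of the endoplasmic reticulum, and NDOR1, a flavin oxidoreductase gene, start 37 bases apart. TMEM203 had 0.39 and 0.30, while NDOR1 had -0.09 and 0.88, each in clone A1 and clone A4. Leaving out 1 library at a time moved NDOR1 from -0.54 to 0.48 in clone A1 and from 0.23 to 1.43 in clone A4, and with the correction for GC content and length it stood at 0.25 in clone A1.

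Of 6 expressed genes of other classes in the interval, values were mixed. CAMSAP1-DT, a divergent transcript, had log2 fold changes of 0.68 in clone A1 and 0.67 in clone A4, and the RNA gene ENSG00000273066 had 0.90 and 1.22. SNHG7, a small nucleolar RNA host gene, had -0.33 and -0.05, and the pseudogene EEF1A1P5, whose reads may be shared with its parent gene, had -0.12 and -0.25.

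**Figure D3:**
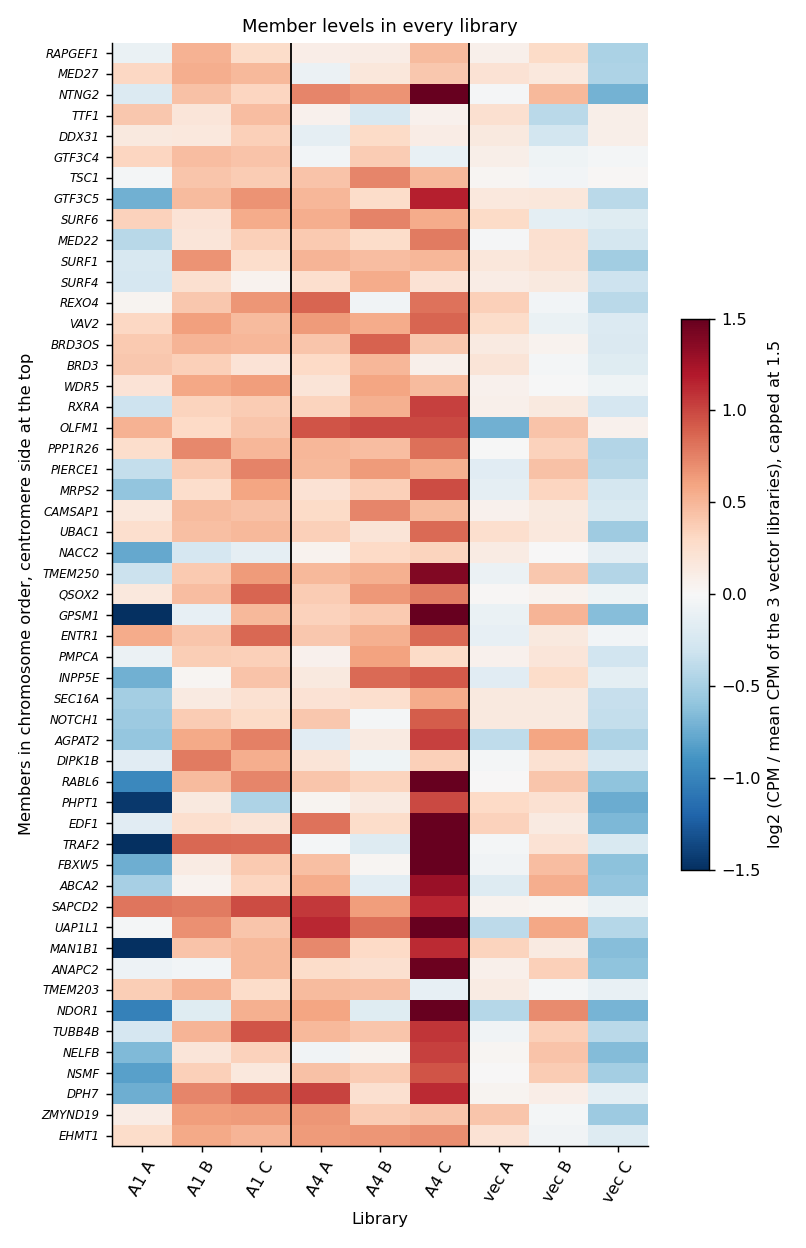
Level of the segment genes (rows, 1 gene not shown, in chromosome order from the centromere side) in each library (columns), as log2 of CPM over the mean CPM of the 3 vector libraries, capped at 1.5. Clone A4 is above the vector mean in most rows, clone A4 replicate C most of all, and clone A1 replicate A is below it in most rows.

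Libraries of 1 clone differed by more than the clones did. Against the vector mean, the median log2 difference of the segment genes was -0.12, 0.43 and 0.49 for the 3 libraries of clone A1 (in the order A, B, C), and 0.43, 0.41 and 0.87 for those of clone A4. Each vector library, set against the other 2, gave 0.12, 0.29 and -0.47. Clone A1 replicate A had 22 of 54 genes above the vector mean, where the other 5 NCBP2 libraries had 46 to 52. Vector replicate C had 5.

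Base composition moved with these library values. Exons of the segment genes had a median GC content of 58.8%, against 46.2% over expressed protein-coding genes, and the 7 genes before TSC1 had 45.7% against 59.5% for the 47 from TSC1 on. On other chromosomes, 1763 expressed protein-coding genes had an exon GC content between the quartiles of the segment genes, 54.9% and 62.2%. Their median log2 difference was -0.76, -0.00 and 0.05 for clone A1, -0.11, -0.09 and 0.44 for clone A4, and -0.13, 0.57 and -0.42 for vector. Clone A1 replicate A and vector replicate C were the 2 lowest libraries for both sets of genes, and clone A4 replicate C was among the 2 highest for both.

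Taken as a difference from the genes of similar GC content, the segment genes were higher by 0.64, 0.44 and 0.44 for clone A1 and by 0.54, 0.50 and 0.43 for clone A4. In vector the same difference was 0.25, -0.28 and -0.05. All 6 NCBP2 libraries lay above all 3 vector libraries on this measure, and the clones overlapped. The interval was chosen for higher values in these NCBP2 libraries, so this order is a description. The genes before the interval gave 0.44, 0.30 and 0.34 for clone A1, 0.01, 0.11 and -0.13 for clone A4, and 0.10, -0.22 and 0.05 for vector. For them clone A1 alone lay above vector.

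**Figure D4:**
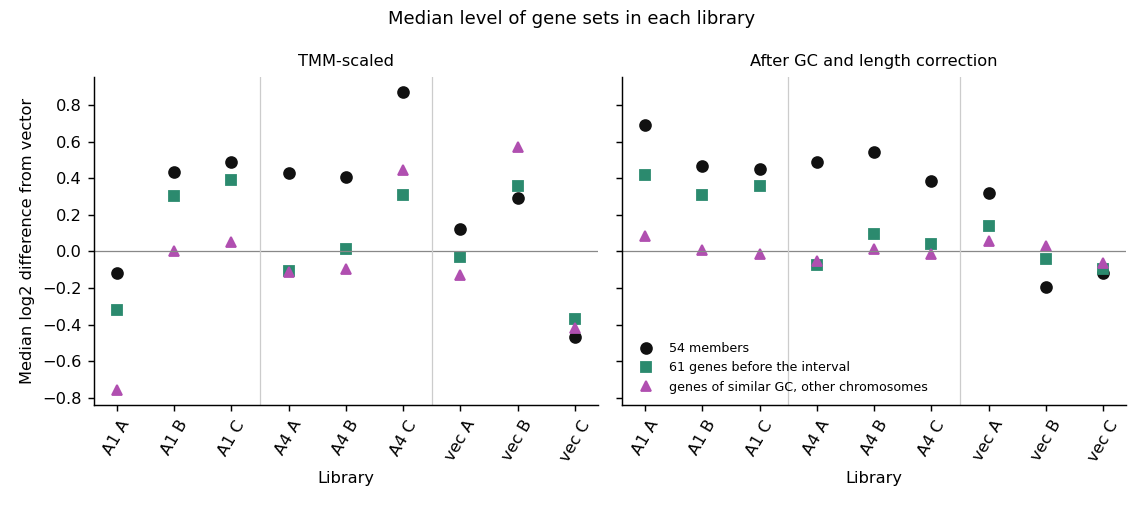
Median log2 difference from vector (vertical axis) of 3 gene sets in each of the 9 libraries (horizontal axis), before (left) and after (right) a correction for exon GC content and length; each vector library is set against the other 2. After correction the 6 NCBP2 libraries have segment-gene medians of 0.39 to 0.69, above the vector libraries at -0.19 to 0.32. The choice of the interval favoured this order.

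With exon GC content and length fitted per library, the median of the segment genes was 0.52 in clone A1 and 0.47 in clone A4. The correction also moved the median of all genes, by 0.09 in clone A1, -0.04 in clone A4 and -0.12 in their difference. Relative to all genes, the segment median went from 0.33 to 0.44 in clone A1 and from 0.57 to 0.48 in clone A4. By library, corrected medians were 0.69, 0.46 and 0.45 for clone A1, 0.49, 0.54 and 0.39 for clone A4, and 0.32, -0.19 and -0.12 for vector. Corrected, 32 segment genes (59.3%) had all clone A1 libraries above vector, against 11.8% of all genes and 17.05% of expressed protein-coding genes. So did 33 of the 61 genes before the interval (54.1%), and 27.4% of chromosome 9 outside the interval, these 61 included. All clone A4 libraries lay above vector in 25 segment genes (46.3%), against 7.41% of all genes and 6.75% of expressed protein-coding genes. Before the interval 6 of the 61 did (9.84%). The corrected values of the segment genes come from the same libraries that chose the interval, so they too are a description.

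Several named genes moved with the correction. SAPCD2 went to 1.24 in clone A1 and 0.74 in clone A4, ENTR1 to 0.89 and 0.53, and WDR5 to 0.73 and 0.34. EHMT1 went to 0.62 and 0.62. NELFB went to 0.35 and 0.19, and NOTCH1 to 0.37 and 0.26. NACC2 at -0.10 and PHPT1 at -0.20 were the 2 genes below 0 in clone A1, and all 54 were above 0 in clone A4. Along the chromosome, the 7 genes before TSC1 had corrected medians of 0.50 in clone A1 and 0.17 in clone A4, and the 47 from TSC1 on had 0.52 and 0.50. The 61 genes before the interval had 0.37 and 0.05.

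**Figure D5:**
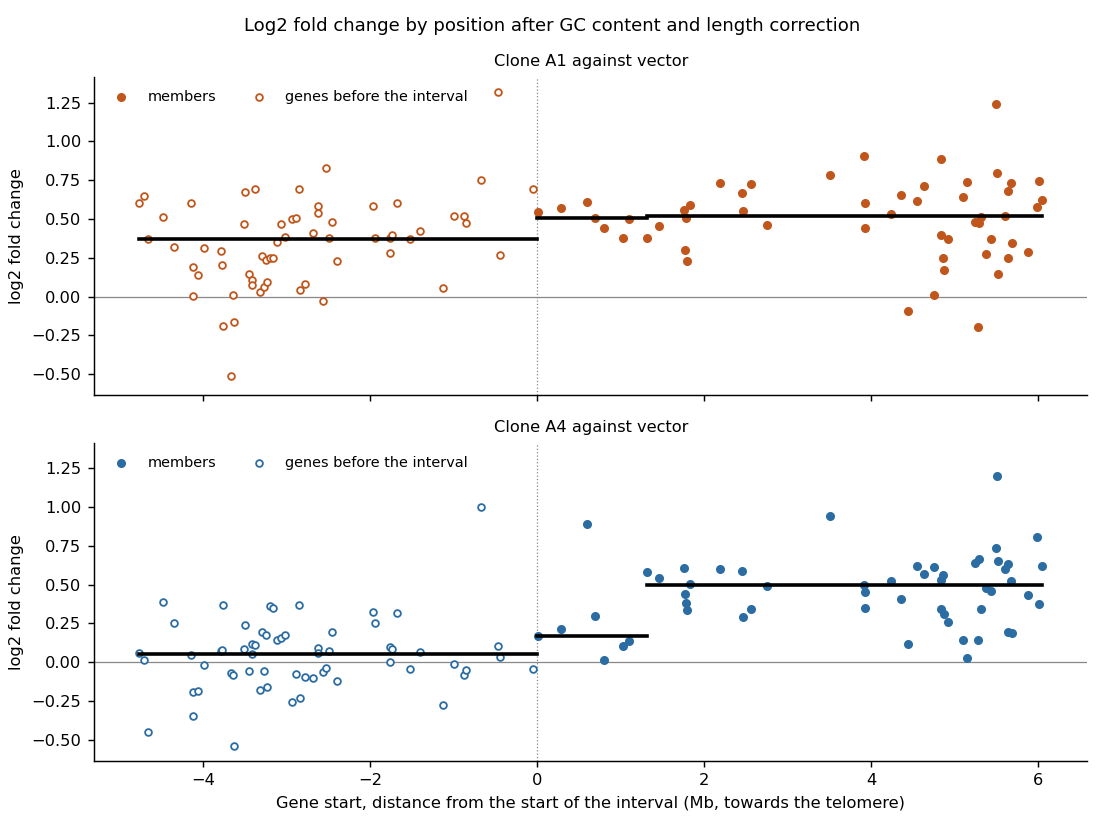
Log2 fold change against vector after correction for exon GC content and length (vertical axis) by distance from the start of the interval in Mb (horizontal axis), clone A1 above and clone A4 below, with segment genes (members) filled, genes before the interval open and medians as black lines. In clone A4 the medians run 0.05, 0.17 and 0.50 along the chromosome, and in clone A1 0.37, 0.50 and 0.52.

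The choice of the interval did not use the difference between the clones, and that difference was tested. The minimum of 4 CPM was taken over all 9 libraries, so a gene near it could enter through clone A4. Before correction, the median log2 difference of clone A4 against clone A1 was 0.24, against 0.04 over all genes, and 43 of 54 genes were above 0, against 53.2% of all genes. With a minimum of 1 CPM the median was 0.41, and with 10 CPM it was 0.22. None of the 54 passed edgeR's test at an adjusted p under 0.05, where 0.161% of all genes did, and DESeq2 called 0, where it called 1.14% of all genes. At an unadjusted p under 0.05 edgeR gave 4 of the 54 genes, all higher in clone A4, where 3.81% of all genes were higher at that level. Of the 1763 genes of similar GC content on other chromosomes, 124 were higher at that level, a share near that of the segment genes. The 4 segment genes were NACC2, EDF1, UAP1L1 and PHPT1, of which EDF1 was named after its value was seen.

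NACC2 differed by 0.59 (SE 0.20), with edgeR's adjusted p at 0.486. EDF1, a transcriptional coactivator gene, was at 10.5, 14.1 and 13.6 CPM for clone A1 and 20.8, 14.3 and 35.5 CPM for clone A4, so the clones did not overlap. It differed by 0.88 with an adjusted p of 0.639 by edgeR. UAP1L1 differed by 0.97 and PHPT1 by 0.90, with edgeR's adjusted p at 0.683 and 0.751. In 8 genes all clone A4 libraries lay above all clone A1 libraries (NTNG2, TSC1, OLFM1, NACC2, EDF1, UAP1L1, NSMF and EHMT1), against 7.92% of all genes, and TTF1 was the 1 gene with the reverse order, against 5.72%. The largest differences, with no call, were GPSM1 at 1.06, UAP1L1 at 0.97 and NDOR1 at 0.97. These genes passed the minimum of 4 CPM through clone A4, where their means were 5.99, 6.33 and 6.415 CPM. In clone A1 and in vector each of their means was under 4 CPM, so the minimum favoured such differences. The lowest differences were TTF1 at -0.39, GTF3C4 at -0.32 and MED27 at -0.28. All lie before TSC1, a division chosen after the values had been seen.

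Genes of similar GC content on other chromosomes had a median of 0.30 in this comparison, with 84.5% above 0. In 11.0% of them all clone A4 libraries lay above all clone A1 libraries, against 14.8% of the segment genes. Over the 54 segment genes, GC content and the difference between clones had a Pearson r of 0.66, and over 10188 expressed protein-coding genes on other chromosomes it was 0.47. These are correlations across genes of the same libraries, given as a description. After correction the median of the segment genes was -0.07, with 24 above 0, and relative to all genes it was 0.02, against 0.21 before. All clone A4 libraries then lay above all clone A1 libraries in 3 segment genes, a share near the 6.53% of all genes. The reverse order was found in 6 segment genes and in 2155 of all 21682 genes. On that corrected scale relative to all genes, the 7 genes before TSC1 stood at -0.27, the 47 from TSC1 on at 0.08 and the 61 genes before the interval at -0.22.

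Single libraries moved these medians. Without clone A1 replicate A, the clone A1 median was 0.43, the count of genes wholly above vector 29 and the difference between clones 0.12. Without clone A1 replicate C the clone A1 median was 0.16, and without vector replicate C it was 0.17. The clone A4 median was 0.39 without clone A4 replicate C and 0.41 without vector replicate C. The difference between clones was 0.12 without clone A4 replicate C, 0.39 without clone A1 replicate B and 0.43 without clone A1 replicate C. Each of these medians stayed above 0. Single genes moved more. Of the 35 genes that the naming rule chose, 20 had a clone A1 value that moved by over 1.5 times or turned in sign without clone A1 replicate A, and 18 did without vector replicate C. In clone A4 the counts were 17 without clone A4 replicate C and 15 without vector replicate C. Without clone A4 replicate C, NELFB stood at -0.02, PHPT1 at 0.07, NOTCH1 at 0.19, GPSM1 at 0.35 and TMEM250 at 0.49 in clone A4. Without clone A1 replicate A, DPH7 stood at 0.82 and TUBB4B at 0.75 in clone A1.

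Genes that work with segment genes but lie elsewhere were listed by complex. Of 81 such genes 77 were tested, and edgeR and DESeq2 called 0 in each of the 3 comparisons. At an unadjusted p under 0.05 edgeR gave 7 in clone A1, 5 in clone A4 and 3 between the clones, where 7.51%, 5.25% and 6.63% of all genes were at that level. Their median log2 fold change was -0.06 in clone A1 and -0.06 in clone A4, against 0.31 and 0.60 for the segment genes.

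For NELFB, the other NELF subunits NELFA, NELFCD and NELFE had -0.25, -0.11 and -0.12 for clone A1 and 0.13, -0.12 and 0.36 for clone A4. TSC2, the partner of TSC1, had -0.06 (SE 0.30) and 0.03 (SE 0.30). RHEB, the GTPase that the TSC complex acts on, had -0.73 (SE 0.24) and -0.70 (SE 0.24) with edgeR's adjusted p at 0.441 and 0.654. A link between the values of RHEB and TSC1 was not tested. EHMT2, the partner of EHMT1, had -0.15 (SE 0.26) and 0.14 (SE 0.26). The 28 other Mediator genes had medians of -0.02 and -0.10, the 9 genes of the WDR5 complexes -0.06 and 0.06, and the 13 of the anaphase-promoting complex 0.07 and -0.04. In the WDR5 complexes KMT2C was lowest, at -0.57 in clone A1 and -0.60 in clone A4. The highest were DPY30 at 0.49 in clone A1 and KMT2B at 0.79 in clone A4. KMT2C and RHEB start at positions 152134922 and 151466012 of the same chromosome, and the part of position in their values was not tested. The 4 other TFIIIC genes had 0.25 and 0.14. Of 15 Notch pathway genes 11 were tested, with medians of -0.09 and -0.23, and HES1, a target gene of Notch, had 0.06 in clone A1 and -0.70 in clone A4 with an adjusted p of 0.654 by edgeR.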

How the data were processed

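Ribosome-depleted RNA from 9 U2-OS libraries was sequenced, and the deposited tables hold raw counts per gene, with no normalization, after 4 lines that name no gene. The submitters' processing notes name STAR 2.7.1a and GRCh38. Counts on the gene's strand were used, and the lines that name no gene (44.5% to 63.6% of reads) were left out. Identifiers were matched to GENCODE release 44 without their version (60295 of 60609).

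The segment genes and the lists were chosen with earlier results of these data known. One model with 3 groups was fitted with edgeR 4.0.16 in R 4.3.3 (quasi-likelihood, robust, filterByExpr, TMM), with Benjamini-Hochberg adjustment over 21682 genes and a threshold of 0.05. SE is the fold change over the square root of F. Levels are CPM on TMM-scaled totals. For the corrected fit, a smooth function of exon GC content and log length was fitted per library (mgcv 1.9.3) and entered as an offset. DESeq2 1.42.0, other filters, strand settings and left-out libraries were alternatives, and the fits were tested on simulated counts. Named genes are those highest or lowest by mean fold change, by role or between clones, those in close pairs or at the minimum, and a few picked by name. Of the 54 genes 1 is counted in the summaries and not reported singly here.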

Additional observations from a re-analysis of the deposited data

Results flagged for a closer look

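NACC2 stood on opposite sides of the vector mean in the 2 clones: all 3 clone A1 libraries lay below it and all 3 clone A4 libraries above it. The log2 difference of clone A4 against clone A1 was 0.59, with edgeR's unadjusted p at 0.0105 and its adjusted p at 0.486, so the difference was tested and did not pass. After correction for GC content and length, NACC2 differed by 0.22 between the clones.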

How the results depend on the processing

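The medians of the segment genes against vector were above 0 in each clone under every alternative run, a direction that the choice of the interval favoured. The median difference between clones turned to -0.066 with the correction for GC content and length, and to -0.072 with the replicate block and that correction together, and was above 0 under the other alternatives. The correction moved the median of all genes by -0.12, so that relative to all genes the segment difference with the correction was 0.02. Counts of called segment genes, 0 in each comparison, became 1 in clone A1 and 2 in clone A4 with DESeq2, which called 274 and 185 of all genes, and 1 (TUBB4B) in clone A1 with the correction, which called 149 of all genes. With the replicate block and the correction they became 13 in clone A1 and 2 (EHMT1 and TSC1) in clone A4, where 629 and 262 of all genes were called, against 14 and 25 without either. With the correction, higher genes without overlap became 32 in clone A1 (11.8% of all genes, 54.1% of the 61 genes before the interval). Between the clones they became 3 (6.53%), while 6 segment genes had the reverse order, as had 2155 of all 21682 genes. Leaving out 1 library at a time gave medians of 0.16 to 0.43 in clone A1, 0.39 to 0.64 in clone A4 and 0.12 to 0.43 between clones, 0 to 0 calls, and 12 to 29, 24 to 35 and 8 to 18 genes without overlap. Between the clones, leaving out replicate C of clone A1 gave 18 such genes, leaving out replicate B of clone A4 also 18, and leaving out its replicate A 13.

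Correlations of deviations ran from -0.102 to 0.179 between same-letter libraries and from -0.271 to 0.221 between libraries of different letters. These values do not settle whether the replicate letters pair the libraries. With the replicate block alone, medians were 0.27 in clone A1, 0.58 in clone A4 and 0.28 between clones, and edgeR called 0 segment genes. The number of libraries, 3 per group, limits what a single gene can show.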
